A study of Mus musculus with 40 samples.

Results

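The folpet diet step sets 7 duodenum libraries labelled Folpet 16000 ppm against 7 labelled Folpet 6000 ppm, which are 14 of the 40 libraries of the series. Members were taken from the treatment label alone, and 2541 of the 3045 probes of the count table passed the filter on low counts and were tested. All 40 libraries came from male wildtype B6C3F1 mice, a hybrid laboratory strain, and from fixed, paraffin-embedded duodenum, the first stretch of the small intestine. Mice were fed folpet (16000 or 6000 ppm) or captan (12000 or 6000 ppm), or drank water with hexavalent chromium (180 ppm), for 28 days, with 7 libraries per exposure. The control group held 5 libraries. The labels state neither the age of the mice nor whether each library is from a separate mouse. The p-values therefore rest on the spread among libraries, part of which may be technical. RNA was read by TempO-Seq, an assay that joins pairs of DNA probes lying side by side on their target RNA and counts the joined products by sequencing.

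Folpet is a fungicide with a trichloromethylthio group on a phthalimide nitrogen. It reacts with thiols such as glutathione and with protein cysteines, and it is known to irritate and thicken the mouse duodenum. Cells answer such thiol-reactive compounds through known routes, among them NRF2 and HSF1. NRF2, freed from its cysteine sensor KEAP1, switches on genes of glutathione use and antioxidant defence through antioxidant response elements. HSF1, freed when proteins misfold, switches on heat shock proteins through heat shock elements. Apart from these routes, the glucocorticoid receptor, which matures on the chaperone Hsp90, controls another set that includes the co-chaperone Fkbp5. A link between folpet and that receptor was not tested.

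The 14 folpet libraries held between 3120439 and 6788378 counts. Total counts averaged 5385072 in 16000 ppm libraries and 4692308 in 6000 ppm libraries, and probes above 0 averaged 2225 and 2247 (2-sided exact permutation tests, p = 0.298 and 0.711, n = 7 each). Enterocyte genes marked the labelled tissue in every folpet library, with Fabp2, a fatty acid binding protein of the absorptive cell, at 45596 to 62282 CPM in 16000 ppm libraries and 25961 to 66491 CPM in 6000 ppm libraries. CPM are counts scaled to a common library size after TMM. Transcripts of pancreatic acinar cells took 14.4, 26.2 and 44.8% of counts in 16000 ppm libraries (lowest, median and highest) and 1.80, 16.3 and 40.2% in 6000 ppm libraries, against 21.2 to 77.6% in control. The acinar shares of the folpet diets did not differ past the threshold in a 2-sided exact permutation test (p = 0.321, n = 7 each). Replicate 1 of the 6000 ppm group stood apart. It had the lowest acinar share of the folpet libraries, 1.80%, and the highest level of 28 of the 45 tested NRF2 and glutathione genes within its group. Without it 39 probes passed, and 37 of the 44 described below were kept. The 7 lost were Tsc22d3, Atp11b, LOC665506, Grb7, Timm17a, H2-K1 and the more abundant Nme1 probe, with adjusted p between 0.0516 and 0.0757 (edgeR).

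Promoters of 3 genes are shown, each from a group below and each with a match to a searched motif. They are Hspa1b of the heat shock proteins, Prdx1 of the antioxidant genes and H2-Aa of antigen presentation. They do not stand for the other members of their groups. The chaperone gene Tcp1 was not among the heat shock element matches, nor the antioxidant gene Osgin1 among those of the antioxidant response element. The sequences are the 250 bases before the gene's start in RefSeq's GRCm38.p6 annotation, read 5′ to 3′ on the gene's strand, at chr17:34959239-34959488 (minus strand), chr4:116685349-116685598 (plus strand) and chr17:34287824-34288073 (minus strand) in the order printed. Capitals mark a heat shock element in Hspa1b, an antioxidant response element in Prdx1, read on the other strand, and a cAMP response element in H2-Aa. The H2-Aa promoter also holds a heat shock element, left in lower case.
Hspa1b: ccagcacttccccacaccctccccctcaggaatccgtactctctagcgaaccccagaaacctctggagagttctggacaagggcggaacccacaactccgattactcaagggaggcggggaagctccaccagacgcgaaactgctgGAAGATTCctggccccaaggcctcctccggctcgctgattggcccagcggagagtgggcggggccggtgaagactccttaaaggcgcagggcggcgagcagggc
Prdx1: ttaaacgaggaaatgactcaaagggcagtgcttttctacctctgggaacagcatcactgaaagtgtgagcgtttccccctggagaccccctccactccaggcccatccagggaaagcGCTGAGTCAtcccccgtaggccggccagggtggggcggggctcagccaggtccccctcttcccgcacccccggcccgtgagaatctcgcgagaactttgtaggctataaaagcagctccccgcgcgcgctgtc
H2-Aa: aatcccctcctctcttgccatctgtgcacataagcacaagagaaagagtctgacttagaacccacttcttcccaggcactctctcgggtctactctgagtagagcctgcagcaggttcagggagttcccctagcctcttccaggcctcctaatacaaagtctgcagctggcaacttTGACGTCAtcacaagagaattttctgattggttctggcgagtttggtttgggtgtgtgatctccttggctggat
The motifs searched, on both strands, were GAANNTTC for the heat shock element, TGACNNNGC for the antioxidant response element and TGACGTCA for the cAMP response element. They stood in 6.69%, 10.2% and 1.55% of 32851 RefSeq promoters of the same length. Promoters were at hand for 31 of the 42 genes that passed. The heat shock element stood in 2 of the 13 that rose (Hspa1b and Sod1) and in 2 of the 18 that fell (C1qb and H2-Aa). The antioxidant response element stood in 6 and 5, and the cAMP response element in 0 and 3, in the same order. A match in a window of this length is a description of its letters only.

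The step was tested with edgeR's quasi-likelihood test on the counts, with Benjamini-Hochberg adjustment over 2541 tested probes, and a probe passed at an adjusted p under 0.05. Between the diets 44 probes of 42 genes passed (1.73% of those tested), and 268 had an unadjusted p under 0.05 (10.5%). Of the 44, 15 were higher in 16000 ppm libraries (0.590%) and 29 were lower (1.14%). The median log2 fold change of all tested probes was -0.03. Most changes were modest: 16 of the 44 probes reached a 2-fold difference. The heat shock gene Hspa1b stood highest, at 4.20 ± 0.75 on the log2 scale (± standard error, here and below), and the glucocorticoid-regulated Fkbp5 lowest, at -1.84 ± 0.35. The 7 libraries of one diet all lay beyond the 7 of the other for 24 of the 44 probes, 8 of them higher and 16 lower. Among all tested probes this held for 1.57%, with 0.590% higher and 0.984% lower. The calls rest on the same values, so nothing further is read from that count.

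**Figure D1:**
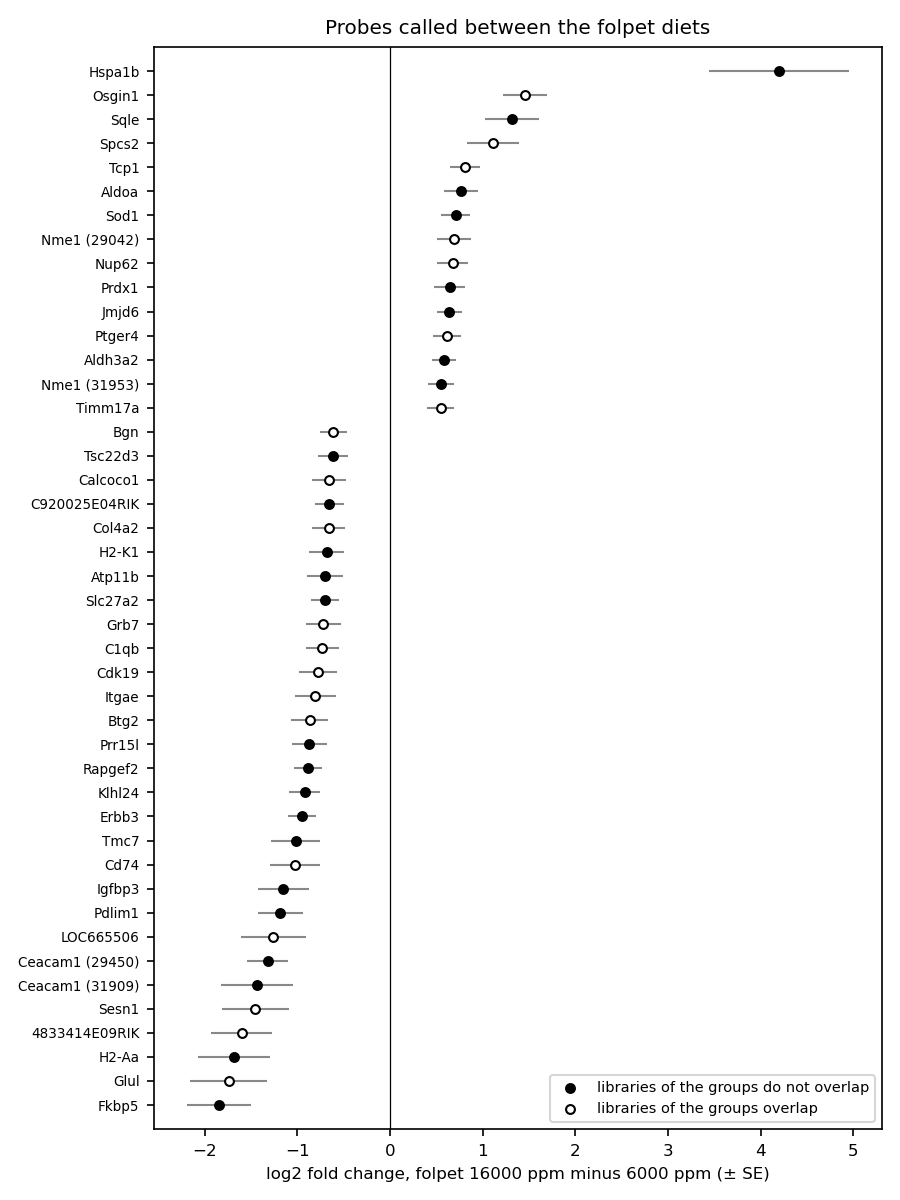
Log2 fold change of each of the 44 probes that passed between folpet 16000 ppm and 6000 ppm (x axis, ± standard error), ordered by size; genes with 2 passing probes show the probe number. Filled points are probes whose 2 groups of 7 libraries do not overlap, 24 in all, and Hspa1b at 4.20 lies far to the right of the other higher probes.

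How far the calls hold depends on scaling and on single libraries. With library totals alone in place of TMM, under which the median of all probes was -0.31, the calls were 1 higher and 8 lower. Those 9 were Hspa1b, Rapgef2, Klhl24, Igfbp3, Pdlim1, the more abundant Ceacam1 probe, an unnamed RIKEN clone transcript, Glul and Fkbp5, so every other rise and fall below lost its call under that scaling. None of the 44 turned its direction there or under any other alternative tried. With pancreatic acinar probes left out of the scaling, 16 were higher and 21 lower, and Tsc22d3, Col4a2, Itgae, the second Ceacam1 probe, Atp11b, H2-K1, Calcoco1 and LOC665506 no longer passed. With folpet and control libraries alone in the fit, 29 of the 44 were kept. Leaving out 1 folpet library at a time gave between 25 and 47 calls, and 18 of the 44 probes passed in all 14 fits. These were Hspa1b, Osgin1, Sqle, Tcp1, Aldoa, Sod1, Jmjd6 and Aldh3a2 among the rises and Slc27a2, Btg2, Prr15l, Rapgef2, Klhl24, Erbb3, Pdlim1, the more abundant Ceacam1 probe, an unnamed RIKEN clone transcript and Fkbp5 among the falls. The calls of Nme1 (both probes), Prdx1, Timm17a, Tsc22d3, Calcoco1, Col4a2, H2-K1, Atp11b, Grb7, Cdk19, Itgae, Tmc7, Cd74, LOC665506 and the second Ceacam1 probe held in 1 to 8 of the 14 fits. The count fell below 30 without 16000 ppm replicates 1, 3 or 5 (27, 27 and 28) and without 6000 ppm replicates 2, 3 or 5 (25, 29 and 29).

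Chaperones of the heat shock response were the group with the largest single rise. Hspa1b, the inducible heat shock protein of the Hsp70 family, had 469, 971 and 1384 CPM in 16000 ppm libraries (lowest, median and highest) and 25.9, 39.7 and 120.2 CPM in 6000 ppm libraries. The lowest 16000 ppm library thus lay well above the highest 6000 ppm library, and the fitted difference was 18.3-fold (adjusted p = 0.0013, edgeR quasi-likelihood test). Control libraries held 49.8 to 255 CPM. Hspa1a, its near-identical neighbour, is named here after its values were seen; it had 5.71 to 36.3 CPM in 16000 ppm libraries and 0 to 10.4 CPM in 6000 ppm libraries and did not pass (adjusted p = 0.438, edgeR). Either probe may also detect the other transcript, so the pair is uncertain as single genes.

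Tcp1, a subunit of the chaperonin that folds actin and tubulin, had 593, 908 and 1036 CPM in 16000 ppm libraries against 365, 492 and 614 CPM in 6000 ppm libraries. It rose by 0.81 ± 0.16 log2 (adjusted p = 0.00247, edgeR), with 6 of the 7 16000 ppm libraries above every 6000 ppm library. Of the 20 tested genes of the heat shock and chaperone list, 2 rose, 1 fell and 17 did not pass, and the list's median was 0.31 against -0.03 for all 2328 tested genes. The gene that fell is Fkbp5, an Hsp90 partner that is described with the glucocorticoid genes. The share of list genes above 0 was 75.0%, against 48.0% of all genes. Fkbp4, another Hsp90 partner named after its values were seen, was at 0.31 ± 0.12 and did not pass. Neither the ER stress list (0 of 21 passed, median -0.01) nor the proteasome and ubiquitin list (0 of 17 passed, median 0.21) had a gene past the threshold.

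Antioxidant genes gave 3 of the rises. Of 45 tested NRF2 and glutathione genes, 3 rose, none fell and 42 did not pass. Of the 45, 38 lay above 0 (84.4%), and the list's median was 0.57. Among all 2328 tested genes 14 rose, 28 fell, 48.0% lay above 0 and the median was -0.03. These are the values to set beside each list in this report. Osgin1, an oxidative stress induced growth inhibitor and NRF2 target, had 387, 622 and 768 CPM in 16000 ppm libraries and 142, 217 and 388 CPM in 6000 ppm libraries. The groups met at a single point, where the lowest 16000 ppm library and replicate 1 of 6000 ppm were about equal. Osgin1 rose by 1.46 ± 0.24 log2 (adjusted p = 0.000206, edgeR). Sod1, the cytosolic superoxide dismutase, had 1293, 1997 and 2395 CPM in 16000 ppm libraries against 959, 1111 and 1261 CPM in 6000 ppm libraries, a rise of 0.71 ± 0.15. Prdx1, a peroxiredoxin that removes hydrogen peroxide, had 4365, 5771 and 6595 CPM against 3343, 3538 and 4309 CPM in the same order of diets, a rise of 0.65 ± 0.16. For both genes every 16000 ppm library lay above every 6000 ppm library (adjusted p = 0.00635 and 0.0248, edgeR). The antioxidant response element searched above stood in the promoters of Prdx1 and Sod1, while Osgin1 was not among the matches. It also stood in those of Aldoa, Jmjd6, Nme1 and Tcp1, which rose but are not on this list, and of 5 genes that fell.

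The classical NRF2 targets lay higher in most 16000 ppm libraries but did not pass. Cbr3, a carbonyl reductase, had 2203 to 4359.7 CPM in 16000 ppm libraries and 480.3 to 2339 CPM in 6000 ppm libraries (1.76 ± 0.51 log2, adjusted p = 0.0726, edgeR). The quinone reductase Nqo1 had 585 to 1109 CPM in 16000 ppm libraries and 217 to 806 CPM in 6000 ppm libraries (1.14 ± 0.37, adjusted p = 0.136). Glutathione reductase, Gsr, was at 0.72 ± 0.27, the glutathione transferase Gsta1 at 0.81 ± 0.32, thioredoxin reductase Txnrd1 at 0.59 ± 0.25 and sulfiredoxin Srxn1 at 0.58 ± 0.28. The subunits of the first enzyme of glutathione synthesis, Gclc and Gclm, were at 0.43 ± 0.49 and 0.31 ± 0.23. A glutathione transferase probe may detect near-identical family members. Glrx, a glutaredoxin, lay the other way at -0.58 ± 0.18 (adjusted p = 0.086). The haem oxygenase gene Hmox1 was listed at 0 in 1 of the 7 16000 ppm libraries and in 5 of the 7 6000 ppm libraries.

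Replicate 1 of 6000 ppm carried the top value of its group for most of these genes. It had 2339 CPM of Cbr3, 806 CPM of Nqo1 and 744 CPM of Slc7a11, the cystine carrier that feeds glutathione synthesis, where the other six 6000 ppm libraries had at most 1080.0, 425 and 152 CPM. Its mean log2 CPM over the 45 genes was 8.86, above the 7 16000 ppm libraries (8.14 to 8.84) and the rest of its own group (7.62 to 8.19). Its Hspa1b, at 51 CPM, was in the range of its own group. Without it 5 genes of the list rose and the list's median was 0.67; Cbr3 was at 2.19 (adjusted p = 0.0174, edgeR) and Nqo1 at 1.44 (adjusted p = 0.0336). Gclc was then at 0.88, Gclm at 0.53 and Slc7a11 at 2.29, against 0.43, 0.31 and 1.38 with it, and none of these passed either way. Osgin1 was at 1.61 without it. The list's count also changed with the libraries in the fit and with the scaling. With the folpet libraries alone in the fit 43 of its genes were tested, 16 rose and 1 fell. That fit differs in its filter and scaling as well as in its estimate of spread, and which of these moved the count was not tested. With library totals as the scaling none passed.

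**Figure D2:**
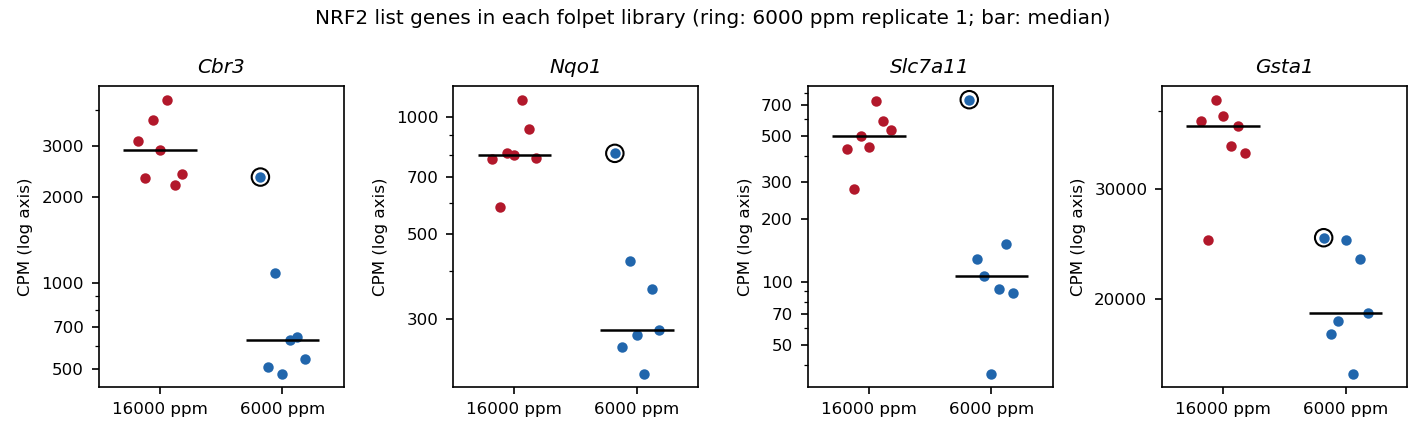
CPM (log axis) of Cbr3, Nqo1, Slc7a11 and Gsta1 in each 16000 ppm and 6000 ppm folpet library, 1 point per library and a bar at each median. The ring marks 6000 ppm replicate 1, which lies within the range of the 16000 ppm libraries for Cbr3, Nqo1 and Gsta1 and just above it for Slc7a11.

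Among metabolic genes, 1 enzyme of sterol synthesis, 1 of glycolysis and 1 of aldehyde removal rose. Squalene epoxidase, Sqle, the second rate-limiting enzyme of cholesterol synthesis, had 69.2, 75.7 and 159.7 CPM in 16000 ppm libraries against 22.9, 39.7 and 62.5 CPM in 6000 ppm libraries. It rose by 1.32 ± 0.29 log2 with no overlap of the libraries (adjusted p = 0.00749, edgeR). Of the 22 lipid and sterol synthesis genes tested, 1 rose and 21 did not pass, 17 lay above 0 and the median was 0.51. Insig1, which holds back the sterol sensor, was at 0.62 ± 0.19 (adjusted p = 0.0872). The glycolytic aldolase Aldoa rose by 0.76 ± 0.18, with 389.7 to 549 CPM in 16000 ppm libraries and 229 to 306 CPM in 6000 ppm libraries. It was the only 1 of 28 hypoxia and glycolysis genes to pass, and that list's median was -0.02.

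In the fatty acid list, 1 of 29 rose and 1 fell. Aldh3a2, which oxidises fatty aldehydes, rose by 0.59 ± 0.13, with 2891 to 3583 CPM in 16000 ppm libraries and 1655 to 2376 CPM in 6000 ppm libraries. Its second probe, of low counts, did not pass. Slc27a2, an acyl-CoA synthetase for very long chain fatty acids, fell by 0.70 ± 0.15 (adjusted p = 0.00635, edgeR), with 486 to 792 CPM in 16000 ppm libraries and 924 to 1281 CPM in 6000 ppm libraries. Glul, which makes glutamine from glutamate, fell by 1.74 ± 0.42, with 72.6, 112 and 148 CPM in 16000 ppm libraries and 94.0, 299.9 and 698 CPM in 6000 ppm libraries. The groups overlapped for Glul, because replicate 1 of 6000 ppm had 94.0 CPM, and Glul was at -1.93 without that library. In the drug metabolism list 0 of 41 passed. Its members with the smallest p were Nr1i2, the xenobiotic receptor PXR, at -0.59 ± 0.17 (adjusted p = 0.0663, edgeR), and its known target Cyp3a11 at -0.93 ± 0.35. Cyp1a1, the classical target of the aryl hydrocarbon receptor, had 47.9, 116 and 705 CPM in 16000 ppm libraries and 0, 6.44 and 95.8 CPM in 6000 ppm libraries and did not pass (3.99 ± 1.57, adjusted p = 0.243).

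The other rises were in genes of secretion, nucleotide supply, transport and signalling. Spcs2, a subunit of the signal peptidase complex, rose by 1.11 ± 0.28 (63.2, 98.9 and 167 CPM in 16000 ppm libraries, 22.7, 53.2 and 66.9 CPM in 6000 ppm libraries), while its other probe was at 0.11 ± 0.39 and did not pass. Both probes of Nme1, a nucleoside diphosphate kinase, rose, by 0.55 ± 0.14 and 0.69 ± 0.19. Nup62, a nuclear pore protein, rose by 0.68 ± 0.17, the JmjC-domain oxygenase Jmjd6 by 0.64 ± 0.14, the prostaglandin E2 receptor Ptger4 by 0.62 ± 0.15 and the mitochondrial import subunit Timm17a by 0.55 ± 0.15. For Jmjd6 and the more abundant Nme1 probe every 16000 ppm library lay above every 6000 ppm library, and for the others the groups overlapped.

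The glucocorticoid-regulated genes Fkbp5 and Tsc22d3 fell. Fkbp5 had 772, 1244 and 1903 CPM in 16000 ppm libraries against 3669, 4890.0 and 5832 CPM in 6000 ppm libraries. Every 16000 ppm library thus lay below every 6000 ppm library, and the fall was 1.84 ± 0.35 log2 (adjusted p = 0.00211, edgeR). Tsc22d3, the glucocorticoid-induced leucine zipper GILZ, had 1247, 1499 and 1822 CPM in 16000 ppm libraries and 1989, 2326 and 2525 CPM in 6000 ppm libraries. It fell by 0.61 ± 0.16 (adjusted p = 0.035), and its other probe was at -0.88 ± 0.35 and did not pass. Tsc22d3 passed in 4 of the 14 fits with 1 library left out, so the list's count was then 1 in the other 10. Of the 8 tested genes of the list, 2 fell and 6 did not pass, 1 lay above 0 and the median was -0.81. With the filter at a minimum count of 50, 6 genes were tested, 2 fell and the median was -0.45. Ddit4, a stress-induced brake on mTOR that glucocorticoids also induce, had 44.3, 60.3 and 95.1 CPM in 16000 ppm libraries and 44.6, 133 and 186 CPM in 6000 ppm libraries and did not pass (adjusted p = 0.288, edgeR), with the receptor gene Nr3c1 at 0.21 ± 0.18.

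Growth factor signalling and growth arrest gave further falls. Erbb3, a receptor of the epidermal growth factor family that binds neuregulins, had 2341, 3057 and 3338 CPM in 16000 ppm libraries and 5054, 5425 and 6641 CPM in 6000 ppm libraries, with a wide gap between the groups. It fell by 0.95 ± 0.15 (adjusted p = 0.000206, edgeR). Grb7, an adaptor that docks on ErbB receptors, fell by 0.72 ± 0.19, with 167 to 279 CPM in 16000 ppm libraries and 267 to 498 CPM in 6000 ppm libraries. Igfbp3, a binding protein of insulin-like growth factors, fell by 1.15 ± 0.28 (47.7, 103 and 137 CPM in 16000 ppm libraries, 139, 206 and 324 CPM in 6000 ppm libraries), and its other probe, at -0.79 ± 0.43, did not pass. In the growth factor list 2 of 31 fell, with a median of -0.04; the receptor gene Igf1r, named after its values were seen, did not pass at -0.92 ± 0.28 (adjusted p = 0.0788).

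Btg2, an antiproliferative gene, fell by 0.87 ± 0.20 (171, 211 and 277 CPM in 16000 ppm libraries, 234, 435 and 510.4 CPM in 6000 ppm libraries). Sesn1, a stress-induced sestrin, fell by 1.45 ± 0.36 (7.87, 43.8 and 73.0 CPM against 62.5, 93.3 and 223 CPM in the same order). Both stand on the list of p53 targets, of which 2 of 33 fell and the median was -0.01; Bbc3, a pro-apoptotic p53 target, was at -1.29 ± 0.43 and did not pass. Of the 77 proliferation genes tested none passed, and their median was 0.13.

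Falls were also seen in genes of the cell surface, the cytoskeleton and intracellular signalling. Both probes of Ceacam1, an adhesion protein of the epithelial brush border, fell. The more abundant one had 148, 229 and 276 CPM in 16000 ppm libraries and 450.1, 559 and 659 CPM in 6000 ppm libraries, a fall of 1.32 ± 0.22 (adjusted p = 0.000206, edgeR). The other fell by 1.43 ± 0.39, and neither probe overlapped between the diets. Rapgef2, an activator of Rap GTPases, had 288 to 428 CPM in 16000 ppm libraries and 571 to 834 CPM in 6000 ppm libraries, and fell by 0.88 ± 0.15. Pdlim1, which links actin filaments to kinases, fell by 1.18 ± 0.24, Klhl24, a substrate adaptor of ubiquitin ligases, by 0.92 ± 0.17, and Tmc7, a transmembrane channel-like protein, by 1.02 ± 0.27, each without overlap of the libraries. A RIKEN clone transcript with no gene name fell by 1.60 ± 0.33 and LOC665506 by 1.26 ± 0.35.

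Genes that lie outside the rule for named genes, and that are given here because they passed, were Prr15l, Cdk19, Atp11b, C920025E04RIK and Calcoco1, beside Grb7 above and H2-K1 and Itgae below. Prr15l fell by 0.87 ± 0.19, the Mediator kinase Cdk19 by 0.77 ± 0.21, the phospholipid flippase Atp11b by 0.70 ± 0.19, C920025E04RIK by 0.65 ± 0.16 and Calcoco1, a coactivator and autophagy receptor, by 0.65 ± 0.18. Their adjusted p lay between 0.00539 and 0.0471 (edgeR).

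**Figure D3:**
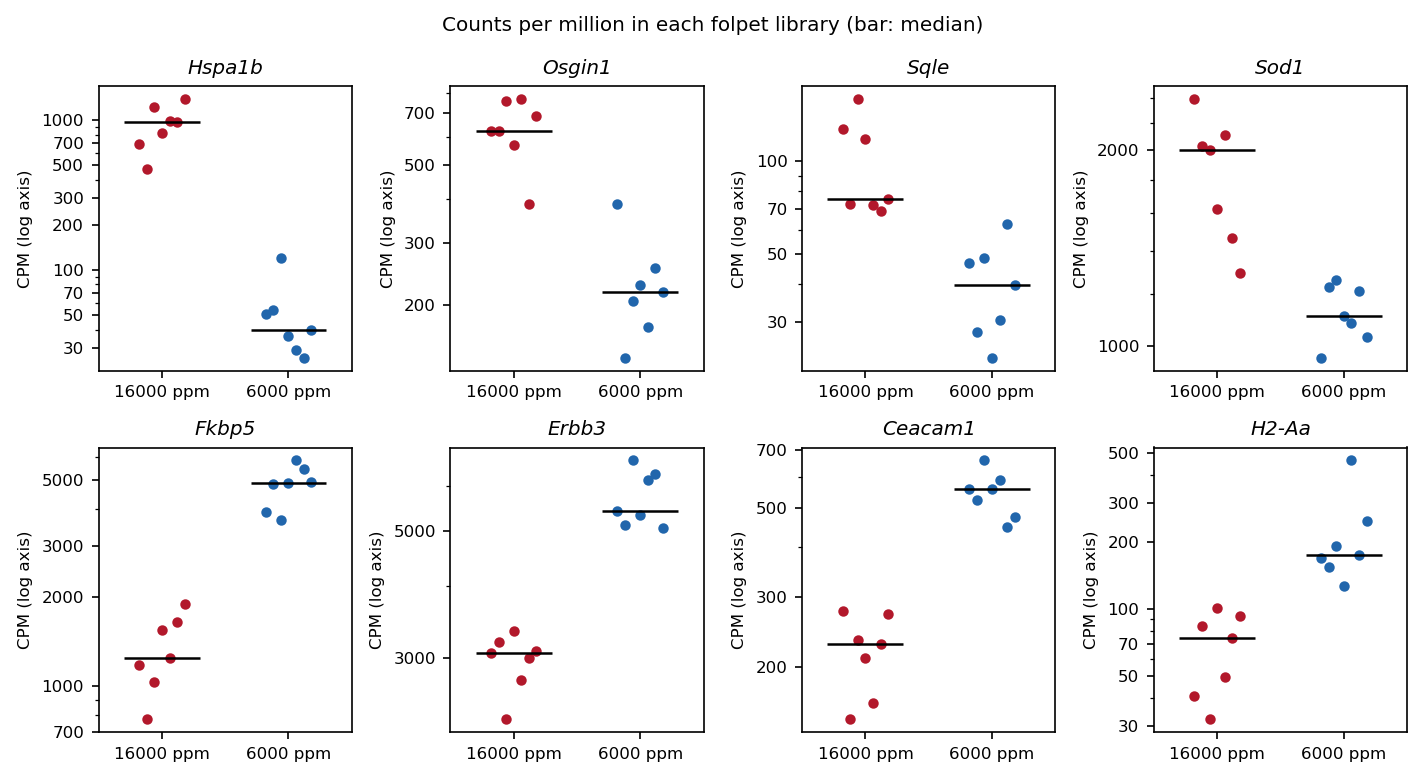
CPM (log axis) of 4 genes that rose (top row) and 4 that fell (bottom row), with 16000 ppm libraries on the left and 6000 ppm libraries on the right of each panel, 1 point per library and a bar at each median. For all but Osgin1 the 2 groups are separate.

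Antigen presentation genes were among the falls. H2-Aa, the alpha chain of an MHC class II molecule, had 32.1, 74.1 and 101 CPM in 16000 ppm libraries against 128, 176 and 464 CPM in 6000 ppm libraries. It fell by 1.68 ± 0.39 with no overlap (adjusted p = 0.0151, edgeR). Cd74, the invariant chain that escorts class II molecules, had 2016, 2700.0 and 5744 CPM in 16000 ppm libraries and 2974, 6705 and 11788 CPM in 6000 ppm libraries, a fall of 1.02 ± 0.27 with overlapping groups (adjusted p = 0.035). H2-K1, an MHC class I heavy chain whose probe may detect related class I genes, fell by 0.68 ± 0.19. Of 10 tested antigen presentation genes 3 fell and 7 did not pass, 2 lay above 0 and the median was -0.69. With 1 library left out the count was 0 to 2 in every fit, and it was 0 without 6000 ppm replicate 5. H2-Aa passed in 13 of those 14 fits, Cd74 in 5 and H2-K1 in 2, and Cd74 also lost its call with the folpet libraries alone and with folpet and control libraries in the fit. Cathepsin S, Ctss, which trims the invariant chain and is named after its values were seen, did not pass (-0.56 ± 0.17, adjusted p = 0.0762), although its 539 to 674 CPM in 16000 ppm libraries lay below the 796 to 976 CPM of 6000 ppm libraries. None of the 19 interferon genes passed, and their median was -0.36.

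C1qb, a complement subunit made by macrophages, had 87.2, 127 and 161 CPM in 16000 ppm libraries and 160.4, 219.5 and 281 CPM in 6000 ppm libraries, and fell by 0.73 ± 0.18 (adjusted p = 0.0153, edgeR). Its partners C1qa, named after its values were seen, and C1qc were at -0.60 ± 0.23 and -0.54 ± 0.19 and did not pass. Of the 14 tested myeloid and mast cell markers, C1qb alone passed, 4 lay above 0 and the median was -0.28. Itgae, the integrin chain CD103 of intraepithelial lymphocytes, fell by 0.80 ± 0.22, and its other probe was at -0.92 ± 0.27 (adjusted p = 0.0658). The granzyme genes of cytotoxic lymphocytes did not pass, with Gzma at -1.66 ± 0.47 (20.8, 46.6 and 131 CPM in 16000 ppm libraries, 112, 178 and 238 CPM in 6000 ppm libraries; adjusted p = 0.0611) and Gzmb at -1.35 ± 0.60. In such bulk tissue, fewer cells of a type and less RNA per cell cannot be told apart.

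Bgn, the matrix proteoglycan biglycan, had 227, 266 and 327 CPM in 16000 ppm libraries and 322, 394 and 557 CPM in 6000 ppm libraries, and fell by 0.61 ± 0.14 (adjusted p = 0.0143, edgeR). Col4a2, a basement membrane collagen, fell by 0.66 ± 0.18, with 88.4 to 144 CPM against 141 to 235 CPM. Of 29 extracellular matrix genes 2 fell, 4 lay above 0 and the median was -0.38. With 1 library left out the count was 0 to 2, and 0 without 6000 ppm replicate 2; Bgn passed in 13 and Col4a2 in 6 of the 14 fits, and neither passed with folpet and control libraries in the fit. Bgn was also the 1 stroma marker of 15 to pass, none of the 15 lay above 0, and the stroma median was -0.40.

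The summed levels of other cell types' markers are given beside these falls; their shares were not tested. Summed stroma markers took 0.0709 to 0.141% of counts in 16000 ppm libraries and 0.146 to 0.259% in 6000 ppm libraries. The summed share was 0.0675 to 0.161% against 0.120 to 0.223% for myeloid and mast cell markers and 0.00788 to 0.0201% against 0.0191 to 0.0416% for T and NK cell markers. Of the 7 tested T and NK cell markers, the granzymes included, none passed, 2 lay above 0 and the median was -0.46. B and plasma cell markers took 0.00457 to 0.0408% against 0.00648 to 0.0285%; none of 6 passed, 4 lay above 0 and the median was 0.43. These shares are of all counts, acinar counts included. The median share was also lower for some lists whose genes lay mostly above 0 on the scaled values. It was 0.392% against 0.460% for proliferation genes (median log2 fold change 0.13). For proteasome and ubiquitin genes it was 0.312% against 0.343% (0.21). Other such lists had a higher median share, among them NRF2 and glutathione genes (17.73% against 14.75%). On the panel, 1 of 14 myeloid markers (Csf1r), 1 of 16 stroma markers (Col6a1) and 1 of 8 T and NK markers (Ccr7) had no count in any 16000 ppm library. In 6000 ppm libraries the stroma marker Timp2, Ccr7 and the B cell markers Cr2 and Ms4a1 had none. Smooth muscle (0 of 7 passed, median -0.27), enterocyte (0 of 9, median -0.19) and endothelial markers (0 of 7, median -0.44) gave no call. Of the 19 acinar genes none passed, 18 lay above 0 and the median was 0.72, and Prss2, a trypsinogen, ran from 4332 to 23619 CPM in 16000 ppm libraries and from 0 to 18636 CPM in 6000 ppm libraries. The part of cell makeup in these falls was not tested. With the acinar share as a covariate 41 of the 44 probes kept their call, and Atp11b, Grb7 and H2-K1 did not.

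To place the step, each diet was also set against control in the same fit. Of 2541 probes 320 passed at 16000 ppm (12.6%; 7.91% higher and 4.68% lower) and 158 at 6000 ppm (6.22%; 4.60% higher and 1.61% lower). The control group is uneven: acinar transcripts took 65.5% of counts in replicate 4 and 77.6% in replicate 5. Replicate 5 had 1460 probes above 0, against 2013 or more in the folpet libraries. The counts against control were not compared with and without those libraries. The control libraries enter both comparisons, so each gene's values are given side by side and no overlap between the lists is read. Of the 15 probes that rose in the step, 9 were above control at 16000 ppm, and the 3 of Aldoa, Prdx1 and Aldh3a2 were above control at 6000 ppm too. Aldoa was 1.57 ± 0.21 above control at 16000 ppm and 0.80 ± 0.20 at 6000 ppm, and Aldh3a2 1.34 ± 0.15 and 0.76 ± 0.14. Hspa1b was 2.71 ± 0.81 above control at 16000 ppm (adjusted p = 0.0206, edgeR), and at 6000 ppm it was at -1.48 ± 0.73 and did not pass. Sqle passed against control at neither diet, with 0.61 ± 0.32 at 16000 ppm and -0.70 ± 0.32 at 6000 ppm.

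The probes that fell in the step are listed by where the 6000 ppm diet stood, with the same limit from their choice by the step. In 8 of the 29, 6000 ppm libraries were above control: Fkbp5, Tsc22d3, Erbb3, Grb7, Btg2, Rapgef2, Atp11b and Tmc7. Fkbp5 was 0.03 ± 0.37 from control at 16000 ppm and 1.87 ± 0.39 above it at 6000 ppm (adjusted p = 0.983 and 0.00166, edgeR). Rapgef2 was at -0.01 ± 0.16 and 0.88 ± 0.17, Btg2 at -0.07 ± 0.22 and 0.80 ± 0.22, and Erbb3 at -0.36 ± 0.17 and 0.59 ± 0.17, in the same order. Of these 8, Tsc22d3 alone was above control at 16000 ppm as well, at 0.66 ± 0.18 against 1.28 ± 0.19 at 6000 ppm. A further 18 of the 29 were below control at 16000 ppm. Among these, H2-Aa and Cd74 were below control at both diets, at -3.01 ± 0.43 and -2.28 ± 0.29 at 16000 ppm and at -1.32 ± 0.41 and -1.26 ± 0.29 at 6000 ppm. Ceacam1, Glul, Igfbp3, C1qb and Bgn were below control at 16000 ppm only by the test, and the difference between the diets is the step itself. The control level of Glul rests on 1 library: control libraries had 166, 197 and 1234 CPM (lowest, median and highest), the highest in replicate 5. The control median lay below the 6000 ppm median of 299.9 CPM, so the place of Glul against control at 6000 ppm is uncertain. The highest 16000 ppm library, at 148 CPM, lay below every control library. Prr15l, Pdlim1 and LOC665506 passed at neither diet.

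**Figure D4:**
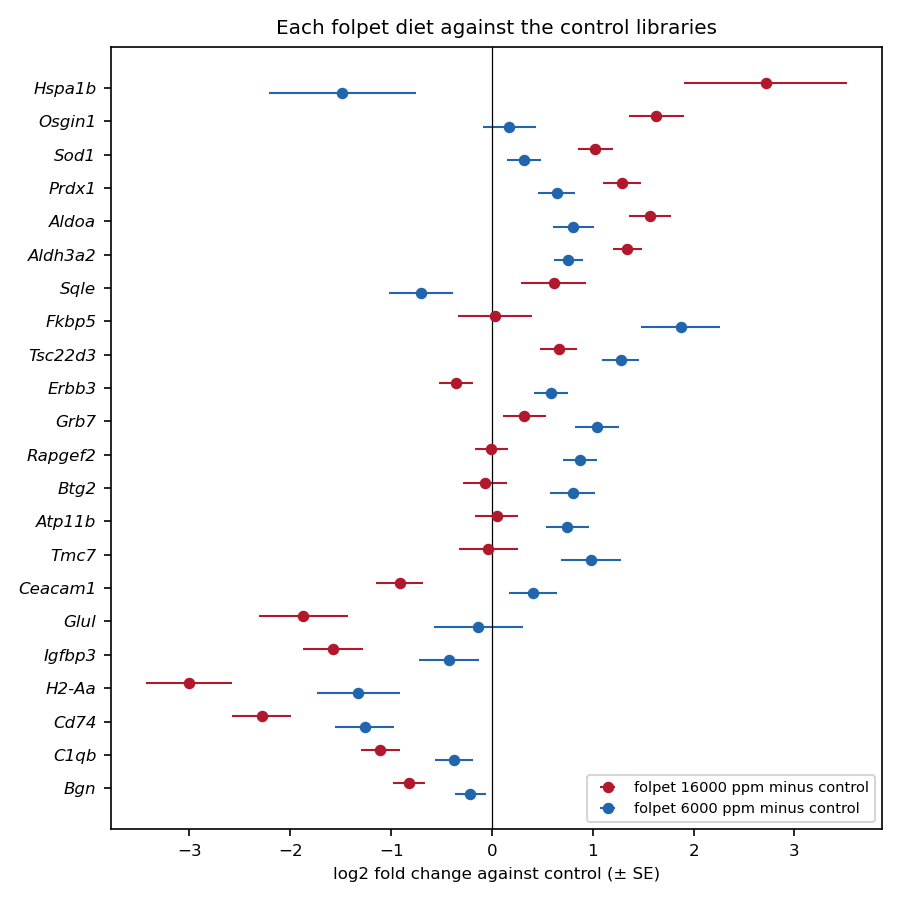
Log2 fold change against control (x axis, ± standard error) of 22 genes that passed between the diets, with 16000 ppm above 6000 ppm in each row. Fkbp5, Rapgef2, Btg2, Atp11b and Tmc7 lie near 0 at 16000 ppm and above 0 at 6000 ppm, while H2-Aa and Cd74 lie below 0 at both.

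Captan, which carries the same trichloromethylthio group on a partly saturated ring system, was given at 2 doses as well. Its step, 12000 against 6000 ppm, shares no library with the folpet step but is smaller in ppm, so the 2 are set side by side. No probe passed in the captan step with edgeR, and 148 of 2541 had an unadjusted p under 0.05 (5.82%). Of the 44 probes of the folpet step, 39 had the same sign in the captan step, against 54.2% of all tested probes. For 15 of them the captan step had an unadjusted p under 0.05 in that direction, against 3.74% of all tested probes. Both steps use the same estimate of spread for each probe, so the choice of the 44 also bears on this count. All tested probes are therefore not a like background for it. Hspa1b was at 2.08 ± 0.69 in the captan step, Osgin1 at 0.79 ± 0.24, Sqle at 0.76 ± 0.29, Klhl24 at -0.65 ± 0.17, Erbb3 at -0.52 ± 0.15 and Fkbp5 at -1.03 ± 0.34, and none of these passed after adjustment (adjusted p = 0.555 for Hspa1b, edgeR).

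The difference between the 2 steps was tested as an interaction. No probe passed with edgeR, 168 had an unadjusted p under 0.05 (6.61%), and DESeq2 called 0 and limma-voom 1. The smallest adjusted p among the 44 was that of the more abundant Ceacam1 probe, 0.180, where the folpet step was at -1.32 ± 0.22, the captan step at -0.04 ± 0.22 and their difference at -1.28 ± 0.31. For Hspa1b the difference was 2.12 ± 0.95 (adjusted p = 0.695, edgeR) and for Fkbp5 -0.82 ± 0.47 (adjusted p = 0.891). For Sod1 the captan step was at 0.05 ± 0.15 and the difference at 0.66 ± 0.22. A p that misses the threshold does not show that the compounds act alike, and since the 44 were chosen by the folpet step no count over their differences is read.

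**Figure D5:**
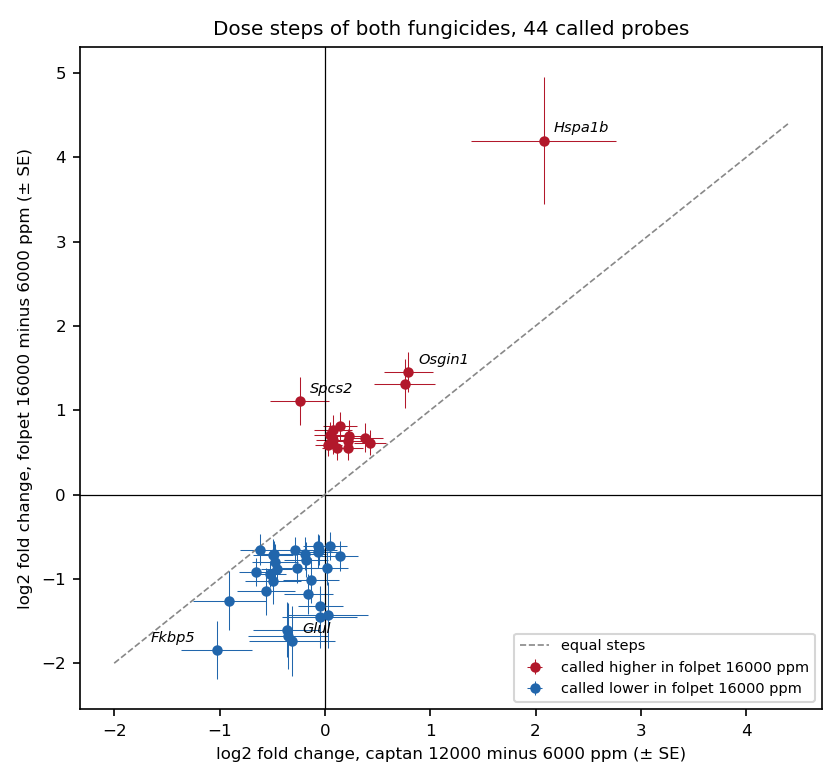
Log2 fold change of the captan step, 12000 minus 6000 ppm (x axis), and of the folpet step, 16000 minus 6000 ppm (y axis), for the 44 probes that passed in the folpet step, each ± standard error. Most points lie on the same side of 0 on both axes, 39 of 44; the dashed line marks equal steps.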

How the data were processed

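The data are TempO-Seq counts of 3045 probes in 40 libraries of male B6C3F1 mouse duodenum. Per the labels' protocols, fixed sections were scraped from slides into lysis buffer; Bowtie, mm9 and bcl2fastq 2.17.1.14 are listed in the submitters' processing notes. The values are whole-number counts per probe as deposited, with no normalization, and each column was matched to its library by its label. Of the values 28.49% were 0, and no libraries within a group were identical.

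Probes were filtered with edgeR's filterByExpr (minimum count 10, minimum total 15), which left 2541, and libraries were scaled by TMM. A robust quasi-likelihood model of the 6 group means was fitted to all 40 libraries (34 residual degrees of freedom) in edgeR 4.0.16 under R 4.3.3, with Benjamini-Hochberg adjustment and 2-sided tests. Standard errors are approximate: each fold change (log2) over its root F statistic. Log2 CPM used a prior count of 2. DESeq2 1.42.0, limma 3.58.1, other scalings, filters, sets of libraries and an acinar covariate were alternatives. The scripts were tested on simulated data.

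Members and gene lists were chosen with earlier results of these data known. Named genes were the 15 largest rises and 15 largest falls that passed, the 2 members of each list with the smallest p in each direction, and any NRF2, drug metabolism or acinar gene; exceptions are stated. Low counts limit precision for probes of a few CPM, and PCR reads are not independent molecules.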

Additional observations from a re-analysis of the deposited data

Results flagged for a closer look

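Of 94 groups of 7 values tested with Dixon's criterion (critical value 0.568), 3 held a library far from the rest, and chance alone gives about 1 in 20. Jmjd6 was highest in 16000 ppm replicate 3, at 8.83 log2 CPM with the nearest library at 8.44. Sesn1 was lowest in 16000 ppm replicate 2, at 3.05 log2 CPM with the nearest at 4.97. Replicate 5 of 6000 ppm had 2013 probes above 0, the lowest of its group, with the nearest at 2237.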

How the results depend on the processing

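The step gave 44 calls. It gave 9 with library totals alone, 86 with DESeq2 (which left 1330 adjusted p as NA), 113 when folpet libraries alone were fitted, 70 when the 7 libraries with over 50% acinar counts were dropped and 69 at an adjusted p under 0.1. It gave 25 to 47 with 1 folpet library left out. The 7 other alternatives gave 35 to 66: limma-voom 66, folpet and control libraries 35 (17 higher, 18 lower), acinar probes left out of the scaling 37, and 43 to 46 for the remaining filters, size factors and covariate. No called probe changed sign under any of these. Gclm, which did not pass, was reversed with library totals alone, at -0.0199 log2. The number of list memberships called was 21, against 3 with library totals alone, 34 with DESeq2, 52 with the folpet libraries alone and 13 to 22 with 1 library left out. The interaction of the folpet and captan steps gave 0 calls in edgeR and 1 with limma-voom. The cause of these differences was not tested. No paired analysis was possible because the labels give no pairing, batch or date. The labels carry no replicate numbers either, so those used here follow the order of the samples within each group. Depth limits probes of a few CPM, such as Hspa1a and Hmox1.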

Other observations

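Several gene groups not described above gave few or no calls in the step. Of 31 inflammation genes none passed, 13 lay above 0 and the median was -0.18. Of 22 apoptosis genes none passed (median 0.01), of 16 Wnt and stem cell genes none passed (median -0.17, 3 above 0), and of 25 genes of mitochondria and the citric acid cycle none passed (median 0.11, 17 above 0). Of 17 immediate early genes 1 fell, Btg2, and the median was -0.29.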
